A study of Mus musculus with 4 samples.

Results

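The BCL2 family genes are 10 named regulators of apoptosis, taken by gene symbol: the survival genes Bcl2, Bcl2l1 and Mcl1, the effector genes Bax and Bak1, and the BH3-only genes Bcl2l11, Bid, Bik, Bbc3 and Pmaip1. Of these, 9 had a value among the 19938 genes of the table, each from 1 probe set, and Bax was not analysed here. They were compared across 4 arrays, 1 per sample. Mouse embryonic fibroblasts (MEF) and the induced pluripotent stem (iPS) lines 178B5 and 492B4 shared a background of DBA/2, C57BL/6 and 129S4 mixed together. The embryonic stem (ES) line v6.5 was an F1 of the strains 129 and C57BL/6, and its strain was thus not that of the other samples. The fibroblasts were grown in serum medium, and the 3 pluripotent lines in ES cell medium on SNL feeder cells, a fibroblast line, stopped from dividing with mitomycin C. The sources used here do not say how the iPS lines were reprogrammed.

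Cells that die by the mitochondrial route release cytochrome c through pores that BAX and BAK form in the outer mitochondrial membrane. BCL2, BCL-XL (from Bcl2l1) and MCL1 hold these effectors in check, and BH3-only proteins such as BIM (from Bcl2l11), BID, BIK, PUMA (from Bbc3) and NOXA (from Pmaip1) counter the survival proteins or switch the effectors on. Pluripotent stem cells are known for undergoing apoptosis readily after DNA damage.

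Between fibroblasts and the pluripotent lines, the family members whose difference was called were Bcl2, which fell, and Bcl2l11, which rose. The bases just before their transcription starts are shown to set this pair side by side. They come from RefSeq (GRCm38.p6), run 5′ to 3′ on the gene's strand and end at the base before the start. Capitals mark GC boxes (GGGCGG on either strand), the letters that Sp1-type factors are known to bind. The Bcl2 window is chr1:106714291-106714540, minus strand, and the Bcl2l11 window, the more upstream of 2 starts listed, is chr2:128125788-128126037, plus strand.
Bcl2: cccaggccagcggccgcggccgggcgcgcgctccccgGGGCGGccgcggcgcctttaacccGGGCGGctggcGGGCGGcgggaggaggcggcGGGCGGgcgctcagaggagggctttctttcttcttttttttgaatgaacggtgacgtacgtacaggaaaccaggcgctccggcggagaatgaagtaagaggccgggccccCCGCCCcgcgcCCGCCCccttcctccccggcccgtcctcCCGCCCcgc
Bcl2l11: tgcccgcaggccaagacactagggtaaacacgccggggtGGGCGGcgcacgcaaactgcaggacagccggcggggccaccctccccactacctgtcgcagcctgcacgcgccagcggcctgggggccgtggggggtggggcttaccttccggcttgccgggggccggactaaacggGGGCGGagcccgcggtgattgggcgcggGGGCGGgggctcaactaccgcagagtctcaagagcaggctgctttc
The Bcl2 window held 7 GC boxes and 36 CpG dinucleotides, with 74.8% G or C. The Bcl2l11 window held 3 GC boxes and 24 CpG, with 72.0% G or C. Of 32851 windows of 250 bases before a start in the RefSeq table, 32.7% held at least 1 GC box, 8.47% at least 3 and 0.411% at least 7, and the median was 6 CpG and 52.4% G or C. Neither window held a TATA box (TATAAA on either strand, present in 12.4% of all windows). The Bcl2l11 window held 1 CCAAT box (CCAAT on either strand, in 33.9% of all windows), and the Bcl2 window 0. Before the other listed start of Bcl2l11, not shown, lay 2 GC boxes, 2 CCAAT boxes and 30 CpG, with 73.2% G or C. GC boxes were not particular to this pair. Members that were not called held them too: Bbc3 had 5, 1 and 7 before its 3 listed starts, Bid 3 and Mcl1 1. Bik and Pmaip1 had no listed start. GC boxes were absent before the 3 listed starts of Bcl2l1 and the start of Bak1. These 2 genes also had lower values in the pluripotent lines, as did Bid with its 3 GC boxes. These matches describe letters in a window, and binding was not measured.

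All values are on a log scale read as log2, and in the deposited table every probe set had a median of 0 over the 4 arrays. A value therefore gives a gene's position relative to its own median, the table holds no expression levels, and genes cannot be ranked by abundance. Differences between arrays are unaffected by this centring. In a bulk sample, fewer cells of a type and less RNA per cell cannot be told apart.

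The labels were checked against marker genes. All 10 pluripotency markers, Pou5f1, Nanog and Sox2 among them, were called higher in the pluripotent lines, with a median difference of 6.06 log2 from MEF. All 9 measured fibroblast markers were below MEF in every line, and 6 were called. The lines were not alike in these: the median fibroblast marker stood at -4.23 log2 relative to MEF in iPS 178B5, -4.95 in iPS 492B4 and -2.90 in ES. The median primitive endoderm marker was 1.45 log2 above MEF in iPS 178B5, 0.77 above in iPS 492B4 and -0.68 in ES. Of 8 macrophage markers 0 were called in limma's test (5 at an unadjusted p under 0.05, against 37.8% of all genes). Of 6 endothelial markers 1 was called, Pecam1, which was higher in the lines and is also made by ES cells. The median endothelial marker was 1.09 log2 above MEF in iPS 178B5, 0.45 above in iPS 492B4 and 0.24 above in ES. How far fibroblast, feeder, endoderm-like or endothelial cells contribute to the family's differences was not tested.

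**Figure D1:**
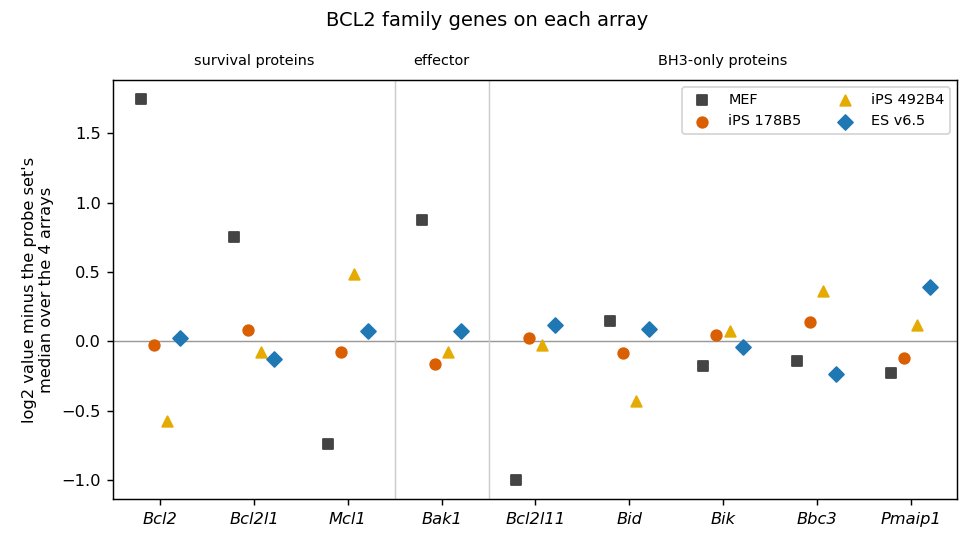
Values of the 9 measured BCL2 family genes on each of the 4 arrays, as log2 value minus the probe set's median over the arrays, grouped by the protein's role. The MEF array stands apart for Bcl2 (1.74), Bak1 (0.87) and Bcl2l1 (0.75) above the lines, and for Bcl2l11 (-0.997) and Mcl1 (-0.74) below them.

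Setting the 3 pluripotent lines against MEF compares the family between these samples. Medium and feeder cells differ too, so cell type and culture cannot be told apart here. Bcl2 fell by 1.94 log2 (SD 0.33, n = 3 lines) and Bcl2l11 rose by 1.04 log2 (SD 0.07, n = 3). Bak1 and Bcl2l1 passed the adjusted p threshold of 0.05 with lower values in the lines, but their differences were under the minimum of 1 log2 that a call also required. Mcl1, Bid, Bik, Bbc3 and Pmaip1 did not pass the adjusted p threshold. Thus 2 of 9 members were called, 1 lower and 1 higher, against 17.6% of all genes called in either direction, 9.71% lower and 7.90% higher. By adjusted p alone 4 of 9 passed, against 23.8% of all genes, of which 3 were lower (13.0% of all genes) and 1 higher (10.8%). The median absolute difference was 0.80 log2 over the members and 0.38 log2 over all genes, while the signed medians were 0.20 and -0.10 log2. The MEF array lay outside the range of the 3 lines for 8 of 9 members and for 77.8% of all genes. The fit took its spread from the 3 lines, with the lone MEF array assumed to vary like them.

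Among the survival genes, Bcl2, the founding member of the family, had values of 1.74 on the MEF array, -0.02 on iPS 178B5, -0.58 on iPS 492B4 and 0.02 on ES. MEF was the highest by 1.72 log2 over the nearest line, and iPS 492B4 was the lowest. The difference of -1.94 log2 (limma SE 0.29, adjusted p = 0.0167) is 3.83-fold in size, and 4.01% of all genes were as far or farther below MEF. iPS 178B5 and ES were 0.05 log2 apart in this gene, less than the SD over the lines. Without iPS 178B5 the difference was -2.02 log2 and was not called (adjusted p = 0.0572), while it was called at -1.74 log2 without iPS 492B4 (adjusted p = 0.0210) and at -2.04 log2 with ES left out (adjusted p = 0.0116).

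Bcl2l1, which encodes BCL-XL and, by alternative splicing, the shorter pro-apoptotic BCL-XS, had values of 0.75 on MEF, 0.08 on iPS 178B5, -0.08 on iPS 492B4 and -0.13 on ES. MEF was again the highest, and the lines lay within 0.21 log2 of each other. The difference was -0.80 log2 (limma SE 0.16, adjusted p = 0.0299). It missed adjusted p 0.05 without iPS 178B5 (adjusted p = 0.104) and without iPS 492B4 (adjusted p = 0.0761). A single probe set gives no view of the splice forms.

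Mcl1, whose protein is short-lived and quickly replaced, stood on the other side. Its values were -0.74 on MEF, -0.08 on iPS 178B5, 0.49 on iPS 492B4 and 0.08 on ES, so MEF was the lowest and iPS 492B4 the highest. The difference of 0.90 log2 (limma SE 0.26, adjusted p = 0.0783) was not called, and the 95% interval ran from 0.19 to 1.60 log2. The lines themselves spanned 0.57 log2, close to the 0.66 log2 between MEF and the nearest line. The 3 survival genes thus had no common direction, with Bcl2 and Bcl2l1 below MEF and Mcl1 above it.

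Bak1, the effector that resides on the outer mitochondrial membrane, had values of 0.87 on MEF, -0.16 on iPS 178B5, -0.07 on iPS 492B4 and 0.07 on ES. MEF was the highest by 0.80 log2, and the lines lay within 0.24 log2. The difference of -0.93 log2 (limma SE 0.16, adjusted p = 0.0228) was under the minimum as deposited, and with the arrays centred on reference genes it was -1.04 log2 (adjusted p = 0.0160) and was called. Without iPS 178B5 the adjusted p was 0.108, and without iPS 492B4 it was 0.0604.

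**Figure D2:**
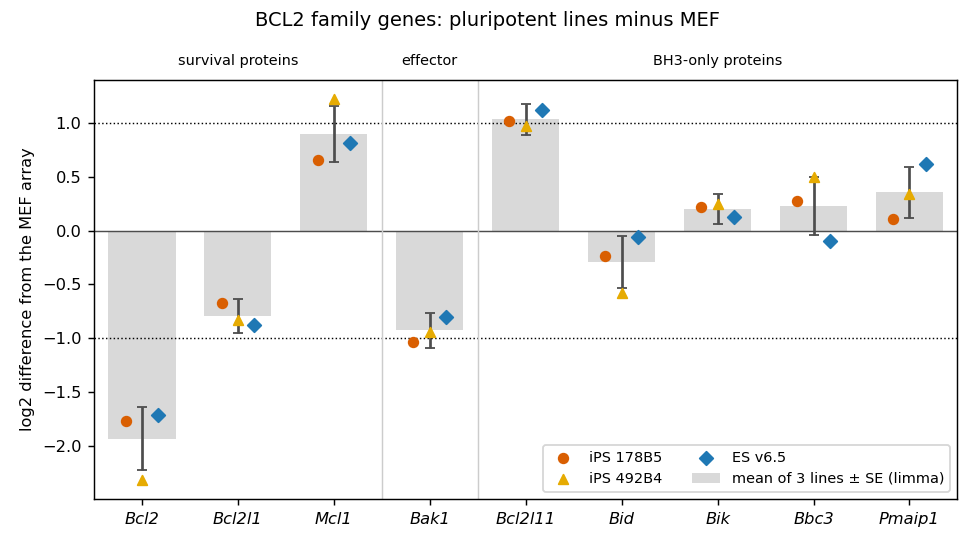
Differences of each pluripotent line from the MEF array in log2 (points), with the mean of the 3 lines as bars and the limma standard error as error bars; dotted lines mark the minimum of 1 log2 in each direction. Bcl2 is the bar that passes the lower line (-1.94) and Bcl2l11 the bar that passes the upper one (1.04), while Bak1 (-0.93) and Mcl1 (0.90) stop short of them.

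Bcl2l11 encodes BIM, a BH3-only protein that binds all the main survival proteins. Its values were -0.997 on MEF, 0.02 on iPS 178B5, -0.02 on iPS 492B4 and 0.12 on ES. MEF was the lowest, and the lines lay within 0.15 log2 of each other, a range smaller than for any other member except Bik. The difference of 1.04 log2 (limma SE 0.14, adjusted p = 0.0143) is 2.05-fold, and 9.61% of all genes were as far or farther above MEF. The difference lies close to the minimum of 1 log2. It was 0.923 log2 with reference gene centring (adjusted p = 0.0175) and 0.997 log2 without ES (adjusted p = 0.0123), each then under the minimum and not called. Without iPS 178B5 it was 1.05 log2 and missed the adjusted p threshold (0.0798).

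The other BH3-only genes stayed nearer to MEF. Pmaip1, which encodes the p53 target NOXA, had values of -0.22 on MEF, -0.12 on iPS 178B5, 0.12 on iPS 492B4 and 0.39 on ES, for a difference of 0.36 log2 (95% interval -0.28 to 1.00, adjusted p = 0.352). Bid, whose protein links death receptor signalling to mitochondria once cleaved by caspase-8, had values of 0.15 on MEF, -0.09 on iPS 178B5, -0.43 on iPS 492B4 and 0.09 on ES (difference -0.29 log2, 95% interval -0.94 to 0.36, adjusted p = 0.443). For Bid the ES array was only 0.06 log2 below MEF, while iPS 492B4 was 0.58 log2 below it.

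Bik had values of -0.17 on MEF, 0.04 on iPS 178B5, 0.08 on iPS 492B4 and -0.04 on ES (difference 0.20 log2, 95% interval -0.18 to 0.58, adjusted p = 0.372). Bbc3, which encodes the p53 target PUMA, had values of -0.14 on MEF, 0.14 on iPS 178B5, 0.36 on iPS 492B4 and -0.24 on ES (difference 0.23 log2, 95% interval -0.49 to 0.95, adjusted p = 0.589). It is the member for which MEF lay within the range of the lines, with both iPS lines above MEF and ES below it. The intervals of Bid, Bik, Bbc3 and Pmaip1 all include 0, and none of them reaches the size measured for Bcl2.

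**Figure D3:**
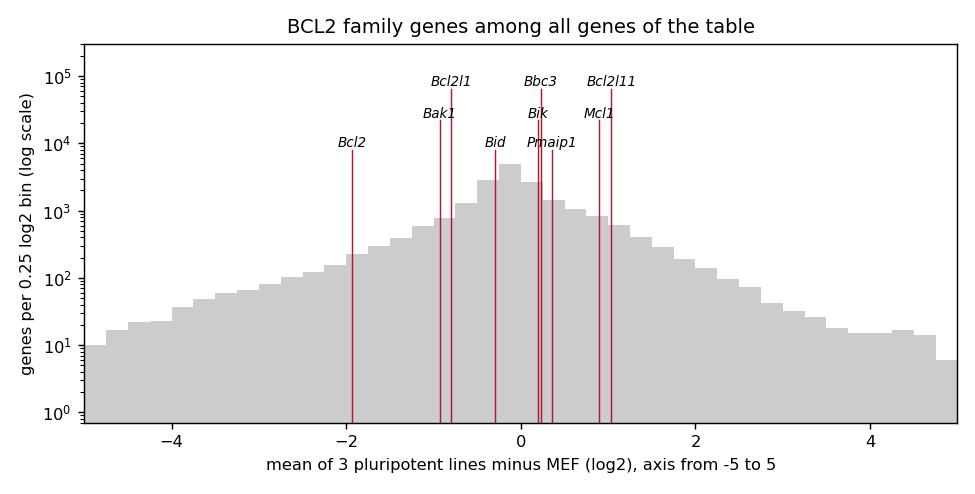
The mean of the 3 pluripotent lines minus MEF for all genes (grey bars, genes per bin of 0.25 log2 on a log axis) with the 9 BCL2 family genes marked by red lines. A further 40 genes lie outside the plotted axis and are not shown. Bcl2 sits in the lower flank, Bcl2l11 (9.61% of genes as far or farther above MEF) in the upper flank, and Bid, Bik, Bbc3 and Pmaip1 in the centre; the height of a red line has no meaning.

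A fit with 3 groups separated iPS from ES. Its 1 residual degree of freedom came from the 2 iPS lines, and the lone MEF and ES arrays were assumed to vary like them. For iPS against MEF, 1 of 9 members was called (21.1% of all genes, 9.94% higher and 11.2% lower), Bcl2 at -2.04 log2 (adjusted p = 0.0116). Bcl2l11 at 0.997 log2 (adjusted p = 0.0123) and Bak1 at -0.99 log2 (adjusted p = 0.0132) passed the p threshold just under the minimum difference. For ES against MEF, 2 of 9 were called (20.0% of all genes, 9.14% higher and 10.9% lower), Bcl2 at -1.72 log2 (adjusted p = 0.0291) and Bcl2l11 at 1.12 log2 (adjusted p = 0.0171). By adjusted p alone 4 of 9 members passed in each comparison (33.2% and 26.3% of all genes), and Bcl2, Bcl2l1, Bak1 and Bcl2l11 were these 4 in both. Both comparisons use the same MEF array, so their likeness is no independent support.

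Setting the iPS lines against ES contrasts reprogrammed cells with a line derived from an embryo. The strain differs between them as well, so origin and strain cannot be told apart here. The median absolute difference was 0.19 log2 both over the members and over all genes. Between iPS and MEF it was 0.75 log2 over the members and 0.40 log2 over all genes. In limma's test 0 of 9 members and 0% of all genes were called, with 1 member and 3079 genes at an unadjusted p under 0.05. That member was Bbc3, at 0.38 log2 above ES in iPS 178B5 and 0.60 in iPS 492B4 (mean 0.49 log2, 95% interval 0.02 to 0.95, unadjusted p = 0.0435, adjusted p = 0.313). Pmaip1 was below ES in both iPS lines, by -0.51 and -0.28 log2 (mean -0.39 log2, 95% interval -0.87 to 0.08, adjusted p = 0.383). For Bcl2 the mean was -0.32 log2 (95% interval -1.09 to 0.44, adjusted p = 0.612), and for Bcl2l11 -0.12 log2 (95% interval -0.51 to 0.26, adjusted p = 0.709). An adjusted p above the threshold does not show that iPS and ES were alike in these genes. In the same comparison 9 of 9 fibroblast markers were below 0, with a median of -1.99 log2, and 10 of 10 primitive endoderm markers above 0, with a median of 1.44 log2. Their part in the members' differences was not tested.

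**Figure D4:**
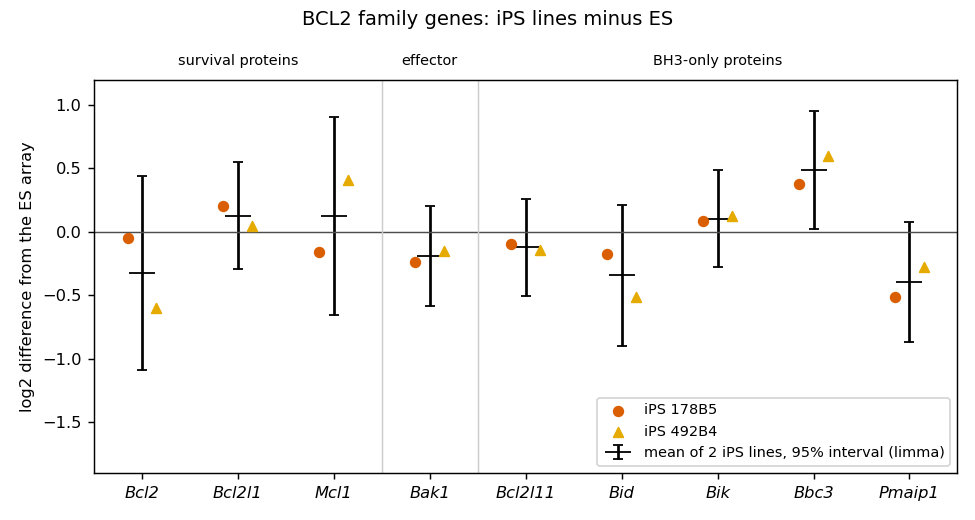
Differences of the iPS lines from the ES array in log2 for the 9 BCL2 family genes: points for each line, a horizontal mark for their mean and a bar for its 95% interval in limma's 3-group fit. The interval includes 0 for every member except Bbc3, where it runs from 0.02 to 0.95 before adjustment over all genes.

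Between the iPS lines themselves, 0 of 9 members were 1 log2 or more apart, against 0.612% of all genes. There is 1 array per line, so this has no test. Mcl1 was 0.57 log2 lower in 178B5 than in 492B4, and Bcl2 was 0.55 log2 higher. Only 5.14% of all genes were as far apart as Mcl1 and 5.50% as Bcl2. Bid was 0.34 log2 higher in 178B5 (16.6% of genes as far apart). Bcl2l11 (0.05 log2), Bik (-0.03 log2) and Bak1 (-0.09 log2) differed little between the lines. The median absolute difference between the lines was 0.22 log2 over the members and 0.14 log2 over all genes.

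The genes whose pattern over the 4 arrays was most like that of Bcl2, by Euclidean distance over all 19938 genes, were Clip3 (distance 0.0800 log2), Rhob (0.114) and Ccdc122 (0.128). For Bcl2l11 they were Pa2g4 (0.0114), Cpsf4 (0.0316) and Rnf220 (0.0368). With 4 arrays such patterns are common: 336 genes lay within a distance of 0.5 of Bcl2 and 1439 within that distance of Bcl2l11.

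Of the wider family 13 of 16 listed genes had a value, and in the pluripotent lines 1 of them was called higher and another 1 lower, shares no larger than the 7.90% higher and 9.71% lower over all genes. Bcl2l14 rose by 1.42 log2 (SD 0.31, n = 3, adjusted p = 0.0294), and Bcl2l2, which encodes the survival protein BCL-W, fell by 1.05 log2 (SD 0.18, n = 3, adjusted p = 0.0262). Relative to MEF, Bcl2l2 stood at -1.04 log2 in iPS 178B5, -0.88 in iPS 492B4 and -1.25 in ES. It was not called with equal array medians, and without either iPS line 1 of these 13 was called. Bok (-1.005 log2, adjusted p = 0.0620), a BAX relative, and the BH3-only genes Bad (-0.77 log2, adjusted p = 0.0678) and Bmf (0.94 log2, adjusted p = 0.131) were not called; these 3 were chosen after their values were seen. The list's median was -0.07 log2.

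Downstream of the pores, cytochrome c and APAF1 form the apoptosome that activates caspase-9. Of 12 measured apoptosome and caspase genes 1 was called, a share near the 7.90% of all genes called higher. It was Cyct, the testis form of cytochrome c, at 1.63 log2 (adjusted p = 0.0162). Apaf1 at 0.09 log2 (adjusted p = 0.885) and Casp9 at 0.26 log2 (adjusted p = 0.362) were not. The list's median was 0.31 log2, beside -0.10 log2 over all genes, and 10 of 12 were above 0. Among 9 inhibitor of apoptosis genes Birc5, which encodes survivin and also acts in cell division, rose by 1.66 log2 (SD 0.23, n = 3, adjusted p = 0.0136), and the caspase inhibitor gene Xiap stood at -0.08 log2 (adjusted p = 0.726). Birc5 was the only call among these 9, against 17.6% of all genes called in either direction and 7.90% called higher. Without iPS 178B5 0 of the 9 were called.

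Genes of the death receptor route, which starts at the cell surface and meets the BCL2 family at BID, had the median farthest from 0 among the 6 pathway lists. Of 13 measured genes 8 were called lower and 0 higher in limma's test, against 9.71% of all genes called lower. An unadjusted p under 0.05 was reached by 10 of them, against 37.8% of all genes. The list's median was -1.38 log2. All 13 were below MEF in every line, while MEF lay outside the range of the lines, on either side, for 77.8% of all genes. Tnfrsf1a, a TNF receptor, stood at -2.80 log2 relative to MEF in iPS 178B5, -3.08 in iPS 492B4 and -2.56 in ES (mean -2.81 log2, adjusted p = 0.00643). Casp8, the initiator caspase that cleaves BID, fell by 2.44 log2 (SD 0.47, n = 3, adjusted p = 0.0186). Fas, a death receptor and p53 target, fell by 2.34 log2 (SD 0.15, n = 3, adjusted p = 0.00574). Cflar, which encodes the caspase-8 inhibitor FLIP, fell by 1.93 log2 (SD 0.40, n = 3, adjusted p = 0.0232), so the genes that fell include an inhibitor of the route as well as its receptors. The count was 4 of 13 without iPS 178B5, 7 without iPS 492B4 and 9 without ES. Of all 19938 genes 744, 1739 and 2235 were called lower in these settings. The 9 fibroblast markers were below MEF in the same lines, and their part in this was not tested.

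**Figure D5:**
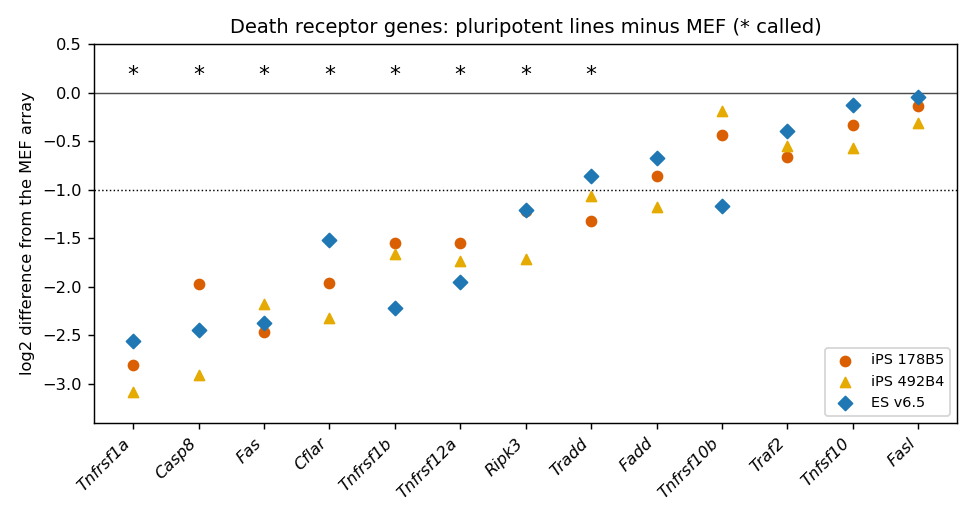
Differences of each pluripotent line from the MEF array in log2 for the 13 measured death receptor genes, ordered by their mean, with asterisks over the 8 that were called and a dotted line at the minimum of 1 log2. Every point lies below 0, from Tnfrsf1a (-2.81 log2 on average) to Fasl (-0.16 log2).

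Upstream, in the list of p53 and its apoptosis targets, 18 of 20 genes had a value. Trp53 and Cdkn1a were not analysed here. Against MEF 1 of 18 was called, Fas, a smaller share than the 17.6% over all genes, and the list's median was 0.13 log2. Mdm4, which restrains p53, missed the call at 1.94 log2 (adjusted p = 0.0618), with 2.12 log2 in iPS 178B5, 2.47 in iPS 492B4 and 1.23 in ES. Without ES 3 of 18 were called, against 4216 of all 19938 genes in that setting. In iPS against ES 15 of 18 genes of this list were above 0 and 3 below (median 0.24 log2, against -0.06 log2 over all genes). In limma's test 0 were called and 8 had an unadjusted p under 0.05 (15.4% of all genes did). The largest above 0 were Mdm4 at 1.06 log2 (adjusted p = 0.182) and Trp53inp1 at 0.995 log2 (adjusted p = 0.183). Farthest below 0 was Tigar at -0.82 log2 (adjusted p = 0.166). These genes were chosen after their values were seen. Of the p53 targets among the members, Bbc3 was above ES (0.49 log2) and Pmaip1 below it (-0.39 log2). The strain differed between iPS and ES as well and cannot be told apart from origin.

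Of 22 genes that regulate BCL2 proteins or partner with them, 3 were called higher and 3 lower, against 7.90% and 9.71% of all genes. Pim1 and Pim3, kinases that phosphorylate BAD, rose by 2.80 log2 (SD 0.07, n = 3, adjusted p = 0.00495) and 1.72 log2 (SD 0.03, n = 3, adjusted p = 0.00596). Tmbim1 fell by 1.93 log2 (SD 0.08, n = 3, adjusted p = 0.00578), and Bag4, a BAG-domain co-chaperone gene, rose by 1.64 log2 (SD 0.16, n = 3, adjusted p = 0.00967). Bag3 at -1.61 log2 (adjusted p = 0.00864) and Akt1, whose kinase also phosphorylates BAD, at -1.52 log2 (adjusted p = 0.0158) completed the calls. Genes that act on the turnover of MCL1 were not called: the ligase genes Huwe1 (0.38 log2, adjusted p = 0.176) and Fbxw7 (0.22 log2, adjusted p = 0.349), and the deubiquitinase gene Usp9x (0.62 log2, adjusted p = 0.0568).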

How the data were processed

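Total RNA was labelled and hybridised to 1-colour Affymetrix arrays, 1 per sample. The authors deposited 1 table of values for 28853 probe sets, made with GCRMA per the submitters' processing notes (version not given in the sources used here). Log base and centring are not stated: base 2 was assumed from the range of the values, and all 28853 probe sets had medians of 0 across arrays, to within 1e-06. The scale can therefore not be set against background, and higher was taken as brighter.

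Probe sets with 1 symbol in the platform annotation (21789, beside 1621 with several and 5443 with none) were averaged per gene. limma 3.58.1 in R 4.3.3 was fitted over all 19938 genes with empirical Bayes moderation and adjustment by Benjamini-Hochberg, after a check on simulated data. A call needed an adjusted p under 0.05 and 1 log2. The lines stood as replicates and no repeat cultures are described, so p-values reflect only the spread among these samples, and the number of arrays limits precision. Median differences of all genes from MEF, -0.10 log2 as deposited, were -0.22 with reference gene centring and -0.03 with equal array medians. Members and lists were chosen with earlier results of these data known. By rule, up to 4 called genes per list were named by size, and 3 genes most like each called member. Other list genes named in the text, Bag3, Akt1 and those not called among them, fall outside this rule.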

Additional observations from a re-analysis of the deposited data

Results flagged for a closer look

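Bbc3 was singled out because both iPS lines lay above MEF (0.28 and 0.50 log2) and ES below it (-0.10 log2). The difference between iPS and ES was 0.49 log2 and was not called in limma's 3-group fit (adjusted p = 0.313). Only 1 MEF and 1 ES array stand behind these signs. The ES line also differs in strain, which cannot be told apart from its origin. No group had the 4 samples that a search for an outlying sample needs.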

How the results depend on the processing

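Against MEF, Bcl2 kept its direction under all 11 alternatives and was called in 9, and Bcl2l11 kept its direction in all 11 and was called in 7. The 11 are not separate checks of direction. Each member has 1 probe set, so the choice of probe set could not change its difference. Leaving out genes that differed little, dropping the minimum difference and robust empirical Bayes also left the differences as reported. The number of members called in the pluripotent lines, 2 as reported, was 4 with no minimum difference, 0 with quantile normalization and between 0 and 2 when a line was left out; of all genes, 0 were called with quantile normalization and between 1357 and 4216 with a line left out, the lowest without iPS 178B5. For iPS against MEF the number of members, 1 as reported, was 2 with reference gene centring, 2 with equal array medians, 4 with no minimum difference and 0 with quantile normalization, and of all genes 6627 and 0 under these last settings. For ES against MEF it was 4 with no minimum difference and 0 with quantile normalization (0 of all genes). Quantile normalization gives every array the same spread by construction, while the deposited arrays had standard deviations of 0.938 for MEF and 0.198, 0.289 and 0.280 for the lines. It moved Bcl2 to -1.02 log2 (adjusted p = 0.790) and turned Bid in ES against MEF to 0.052 log2. For iPS against ES, 0 members were called in every setting that gave a test, and of all genes 109 with reference gene centring, 44 with equal array medians and 252 when genes below the median of the largest difference between arrays were left out. Without iPS 492B4, Mcl1 turned to -0.16 log2 in iPS against ES (0.41 log2 without iPS 178B5); the cause of this and of the scaling shifts was not tested. In the 3-group fit, leaving out an iPS line left no residual degrees of freedom and gave values with no test. Counts per pathway list under the alternatives were added after seeing the data. No paired analysis was possible because the labels give no replicate numbers that groups share.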
